A study of Ovis aries with 40 samples.

Results

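The probes described here are named for 5 enzymes of muscle fuel use. The enzymes are aldolase A (ALDOA), glyceraldehyde-3-phosphate dehydrogenase (GAPDH), lactate dehydrogenase A (LDHA), muscle fructose-1,6-bisphosphatase (FBP2) and pyruvate dehydrogenase kinase 4 (PDK4). Whether each probe reads the message of its enzyme was not tested. The probes are 9 of the 15008 on the array. Of these, 3 were selected on the study's own comparisons of the breeds: ALDOA probe A_70_P001706 on the differences at 70 and 85 d of gestation, FBP2 probe A_70_P063416 on those at 85 and 100 d, and PDK4 probe A_70_P024246 on that at 100 d. The other 6 were chosen by the gene name in the scanner files, 2 each for ALDOA, GAPDH and LDHA. No probe carried the name FBP2, PDK4 or LDHB there, and the names of the 3 selected probes come from the study's lists.

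Muscle breaks glucose and glycogen down through glycolysis, in which aldolase splits a sugar bisphosphate, GAPDH carries out the oxidizing step that follows, and lactate dehydrogenase turns pyruvate into lactate when oxygen is short. FBP2 is the muscle enzyme that runs an early glycolytic step in reverse, from fructose-1,6-bisphosphate towards glycogen. PDK4 shuts down the pyruvate dehydrogenase complex by phosphorylating it, which spares glucose when muscle burns fat, as in fasting or suckling.

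The study took longissimus dorsi, the long muscle of the back, from Texel sheep, a heavily muscled breed that carries a mutation in the myostatin gene GDF8, and from Ujumqin sheep, a fatter Chinese breed without it. Texel fetuses came from 5 stages of gestation (70 d, 85 d, 100 d, 120 d, 135 d), with 4 animals at 100 d and 3 at each other stage. Ujumqin animals were sampled at the same 5 fetal stages, at birth, and at 1 and 2 months of age, with 3 at each. RNA of each of the 40 animals went on 1 Agilent sheep array. The resulting 13 groups of breed and stage comprised 16 Texel fetuses, 15 Ujumqin fetuses and 9 Ujumqin lambs. The labels do not name the dams, but give 3 ewes for a collection, so that at least 2 of the 4 Texel fetuses at 100 d share a dam if this holds per breed and stage. All animals were treated as independent, and the p-values below measure the spread between these animals. At 120 d all 3 Texel fetuses were male and all 3 Ujumqin fetuses female, so breed and sex cannot be told apart there. All 3 Ujumqin animals at 135 d and at 2 months were female. Texel at 135 d and Ujumqin at 70 d held 2 males each, and Ujumqin at birth 1. Those groups with males are thus unequal in sex to Ujumqin at 135 d.

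Signals are given as log2 intensity after quantile normalization over the 40 arrays, so that a difference of 1 is a doubling. The median spot of an array had a processed signal between 217.6 and 708.3, and 79.3% to 90.9% of its spots were well above background. The mean of these array medians was 629.3 in Texel at 70 d and 272.2 in Texel at 135 d, so the older fetal arrays were dimmer before normalization. The number of arrays limits the precision. Each of the 9 stood clear of background on 31 to 40 arrays, and all 9 were among the 14391 probes tested. Spots that the scanner software marked as outliers were left out, which removed 9 arrays for ALDOA probe A_70_P041622, 8 and 5 for the LDHA probes, 5 for PDK4, 1 for FBP2 and 1 for GAPDH probe A_70_P041487. Such losses were common among bright spots, with 9.56% of values left out in the brightest of 10 equal classes of probes and 1.71% to 2.98% in the other classes. Levels of different probes are not compared with each other, since each probe has its own brightness.

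Between 70 and 135 d the signals of 8 probes, named for ALDOA, LDHA, GAPDH, FBP2 and PDK4, rose in both breeds. With slide as a term in the fit, 1 of these 8 calls was kept in Texel (FBP2) and 4 in Ujumqin (FBP2, both ALDOA probes and 1 of LDHA). FBP2 rose most, by 8.41 ± 0.40 (SE, 3 arrays against 3) in Texel and by 10.25 ± 0.40 in Ujumqin. These sizes rest on dim signals at 70 d, near background in Ujumqin, and were as low as 6.25 and 6.64 in other settings. PDK4 rose by 4.45 ± 0.82 and 4.12 ± 0.73, and the 6 probes named in the scanner files by 1.76 to 3.49. ALDOA probe A_70_P001706 did not follow the other ALDOA probes and did not pass the test in either breed. Its test uses the 70 d arrays, which helped to choose this probe. In bulk muscle RNA, fewer cells of a type and less RNA per cell cannot be told apart.

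Both ALDOA probes named in the files come from the same cDNA and overlap end to end. Their sequences are shown because they establish how far the pair is one measurement, and capitals mark the 13 bases they share.

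ALDOA A_70_P041621: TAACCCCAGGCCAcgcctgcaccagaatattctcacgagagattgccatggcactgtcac
ALDOA A_70_P041622: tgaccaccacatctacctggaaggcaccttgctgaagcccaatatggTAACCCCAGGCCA

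With the stage in parentheses after its animals, A_70_P041621 read in Texel 14.14, 13.80, 14.18 (70 d), 14.84, 14.48, 14.72 (85 d), 14.42, 14.66, 14.13, 14.86 (100 d), 15.64, 16.53, 15.73 (120 d), 16.58, 16.59, 15.90 (135 d). In Ujumqin fetuses it read 13.44, 12.66, 13.004 (70 d), 13.56, 13.70, 13.39 (85 d), 14.19, 14.01, 14.39 (100 d), 15.55, 15.85, 15.87 (120 d), 16.17, 16.81, 16.60 (135 d). Ujumqin lambs read 17.80, 17.07, 17.28 (birth), 17.41, 17.32, 17.45 (1 month), 17.43, 17.15, 17.65 (2 months). The signal of A_70_P041621 thus climbed in steps: every array from 120 d on lay above every array up to 100 d. Every lamb lay above every fetus. Ordered from the lowest mean, the groups were Ujumqin at 70 and 85 d, then Texel at 70 d, Ujumqin at 100 d, Texel at 100 and 85 d, then Ujumqin and Texel at 120 d and Texel and Ujumqin at 135 d, then birth, 1 month and 2 months. Neighbours overlapped within each of these 4 sets and did not overlap between them.

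From 70 to 135 d A_70_P041621 rose by 2.32 ± 0.24 in Texel (limma adjusted p 5.77e-09) and by 3.49 ± 0.24 in Ujumqin (2.07e-12), with all 3 arrays at 135 d above all 3 at 70 d in each breed. A_70_P041622 rose by 1.83 ± 0.32 in Texel, where 1 array at 70 d was kept (adjusted p 9.47e-05), and by 3.00 ± 0.23 in Ujumqin (1.41e-09). Over the 13 group means the pair correlated at r = 0.996, as a description of probes that share a cDNA and 40 arrays.

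LDHA, which makes lactate, was read by 2 probes of another cDNA that share no stretch in the overlap search.

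LDHA A_70_P016386: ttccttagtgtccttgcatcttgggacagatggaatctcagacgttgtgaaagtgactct
LDHA A_70_P016387: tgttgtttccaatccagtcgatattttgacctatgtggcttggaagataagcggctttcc

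Neither has capitals, since no feature of them is singled out. A_70_P016387 ranged from 13.40 to 14.36 over the 6 arrays of both breeds at 70 d and from 16.53 to 17.05 over the 6 at 135 d, so those stages did not overlap. Its 3 lambs at birth read 17.50, 17.34 and 16.82, of which the last 2 were left out of the fit. A_70_P016387 rose from 70 to 135 d by 2.56 ± 0.25 in Texel (adjusted p 1.01e-08) and by 3.00 ± 0.25 in Ujumqin (7.69e-10). A_70_P016386 rose by 1.76 ± 0.21 in Texel (7.12e-07) and by 2.64 ± 0.30 in Ujumqin (3.56e-07), the latter with 1 of 3 arrays at 135 d kept. The left-out spots of that probe at 135 d would have read 17.50 and 17.85 beside the 17.72 kept, and its 3 arrays at 70 d read 14.77 to 15.37.

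The 2 GAPDH-named probes share 57 of 60 bases and so count as 1 measurement. A stretch of 37 bases of A_70_P041486 is reverse complementary, at 35 matching bases (94.6%), to a probe that the files describe as sheep GAPDH and name LOC100101232. This pair is shown because it places the GAPDH-named probes on the opposite strand to that probe, with capitals on the complementary stretch.

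GAPDH A_70_P041486: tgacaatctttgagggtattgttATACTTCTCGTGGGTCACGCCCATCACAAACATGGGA
LOC100101232 A_70_P016401: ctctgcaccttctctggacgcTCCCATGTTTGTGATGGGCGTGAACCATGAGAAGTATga

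Which strand of the RNA the GAPDH-named probes read was not tested. In Texel, A_70_P041486 read 9.46, 8.79, 8.86 (70 d), 9.07, 9.05, 9.02 (85 d), 9.87, 10.21, 10.14, 10.22 (100 d), 11.29, 12.23, 10.70 (120 d), 11.82, 11.76, 12.44 (135 d). Ujumqin fetuses gave 8.99, 9.07, 8.95 (70 d), 8.70, 8.89, 9.48 (85 d), 9.81, 10.07, 10.05 (100 d), 10.54, 10.97, 10.96 (120 d), 11.88, 11.64, 12.31 (135 d). Lambs gave 11.19, 11.42, 11.40 (birth), 12.81, 12.70, 12.20 (1 month), 12.42, 12.35, 12.32 (2 months). Both breeds overlapped at 70 and 85 d, lay together between 9.81 and 10.22 at 100 d and went up from there, and the 3 newborn lambs lay below the 3 Ujumqin fetuses of 135 d and below all older lambs. From the lowest mean the order was Ujumqin at 70 and 85 d and Texel at 70 and 85 d, then Ujumqin and Texel at 100 d, then Ujumqin at 120 d, then birth, Texel at 120 d, Ujumqin and Texel at 135 d, 2 months and 1 month. Neighbours within a set overlapped, and neighbours on either side of a boundary between sets did not.

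A_70_P041486 rose from 70 to 135 d by 2.97 ± 0.26 in Texel (adjusted p 2.40e-10) and by 2.94 ± 0.26 in Ujumqin (3.17e-10). A_70_P041487 rose by 2.98 ± 0.30 (3.39e-09) and 2.77 ± 0.30 (1.42e-08). The opposite-strand probe A_70_P016401 rose as well, by 2.06 ± 0.20 in Texel (8.87e-09) and 2.70 ± 0.20 in Ujumqin (8.80e-11).

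FBP2 runs the sugar bisphosphate step backwards. The whole sequence of its probe is given, without capitals, because the largest change below rests on this 1 probe.

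FBP2 A_70_P063416: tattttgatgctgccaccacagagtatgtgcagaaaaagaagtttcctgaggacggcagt

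Texel arrays gave 5.45, 4.62, 6.35 (70 d), 10.44, 9.03, 8.85 (85 d), 11.28, 11.94, 11.35, 11.51 (100 d), 13.01, 13.39, 12.26 (120 d), 13.78, 13.98, 13.90 (135 d). Ujumqin fetuses gave 3.49, 3.57, 3.67 (70 d), 6.01, 5.72, 6.39 (85 d), 10.19, 10.98, 9.97 (100 d), 12.15, 12.16, 11.75 (120 d), 12.98, 14.61, 13.88 (135 d). Lambs gave 15.85 (left out of the fit), 16.05 and 15.97 (birth), 15.28, 15.44, 15.81 (1 month), 15.58, 15.00, 15.62 (2 months). In Ujumqin FBP2 therefore started near background, with 1 of 3 arrays at 70 d well above it, against 3 of 3 in Texel. Each later fetal stage lay above the one before in both breeds without overlap. The group means were 5.47 ± 0.86 (SD), 9.44 ± 0.87, 11.52 ± 0.30, 12.89 ± 0.57 and 13.89 ± 0.098 in Texel from 70 to 135 d. In Ujumqin they were 3.58 ± 0.091, 6.04 ± 0.34, 10.38 ± 0.53, 12.02 ± 0.23 and 13.82 ± 0.81, and then 16.01 at birth from 2 arrays, 15.51 ± 0.27 and 15.40 ± 0.34.

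Put in order from the lowest, FBP2 ran from Ujumqin at 70 d to Texel at 70 d and Ujumqin at 85 d, then Texel at 85 d and Ujumqin at 100 d, then Texel at 100 d and Ujumqin at 120 d. Above these came Texel at 120 d with both breeds at 135 d, then 2 months and 1 month, and last birth. Neighbours by mean overlapped within each of these sets, with Ujumqin between the Texel groups of 120 and 135 d. They did not overlap between sets. The 85 and 100 d arrays chose this probe, so the places of the breeds at those stages are description only. The rise from 70 to 135 d passed the test in Texel (8.41 ± 0.40, adjusted p 2.27e-15) and in Ujumqin (10.25 ± 0.40, 2.14e-17), with all 3 arrays higher in each. The arrays of 85 and 100 d, which chose this probe, are not in those contrasts. Since the lowest values are close to background, the size depends on how dim spots are treated, and over the settings that kept all arrays and had no slide as a fixed term it ranged from 6.25 to 8.58 in Texel and from 6.64 to 10.46 in Ujumqin.

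PDK4 restrains the entry of pyruvate into the citrate cycle. The opening 30 bases of its probe are given to identify it.

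PDK4 A_70_P024246: gaagcagaaggcaagcatcttgctatattc

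Texel fetuses read 9.22, 8.88, 9.14 (70 d), 10.65, 8.75, 10.22 (85 d), 11.76, 13.20, 12.77, 11.66 (100 d), 12.65, 14.90, 13.39 (120 d), 13.53, 14.65 (left out) and 13.53 (135 d). Ujumqin fetuses read 9.42, 9.60, 10.53 (70 d), 8.35, 10.20, 11.49 (85 d), 9.86, 9.37, 10.26 (100 d), 11.15, 12.001, 12.69 (120 d), 15.05, 14.88, 11.98 (135 d). Lambs read 17.11, 17.21, 16.47 (birth), the last 2 left out, 17.37, 17.75, 17.15 (1 month) and 17.56, 17.33, 17.85 (2 months), the last of each left out. All 9 lambs, left-out spots included, lay above all 31 fetuses. Animals of one group differed widely, with an SD of 1.58 in Ujumqin at 85 d and 1.73 at 135 d.

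Group means of PDK4 were 9.08 ± 0.18 (SD), 9.87 ± 0.995, 12.35 ± 0.76, 13.65 ± 1.15 and 13.53 (2 arrays) in Texel from 70 to 135 d. Ujumqin means were 9.85 ± 0.60, 10.01 ± 1.58, 9.83 ± 0.45, 11.95 ± 0.77 and 13.97 ± 1.73 before birth, and 17.11 (1 array), 17.56 (2 arrays) and 17.44 (2 arrays) after it. In order of means the groups were Texel at 70 d, Ujumqin at 100 and 70 d, Texel and Ujumqin at 85 d, Ujumqin at 120 d, Texel at 100, 135 and 120 d, Ujumqin at 135 d, birth, 2 months and 1 month. Neighbours in that order overlapped except Texel at 70 d with Ujumqin at 100 d, Texel at 100 d with Texel at 135 d, and birth with the groups on either side. Groups further apart in the order could still overlap. Texel at 70 d did so with both breeds at 85 d. So did Texel at 100 d with Texel at 120 d and Ujumqin at 135 d. The 100 d arrays chose this probe, so the places of the breeds at that stage are description only. From 70 to 135 d PDK4 rose by 4.45 ± 0.82 in Texel (adjusted p 8.88e-05, 2 arrays kept at 135 d) and by 4.12 ± 0.73 in Ujumqin (6.60e-05), and every array kept at 135 d lay above every array at 70 d of its breed. Without the lowest of the Ujumqin arrays at 135 d, replicate 3, the rise was 5.12.

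A_70_P001706, called ALDOA in the study's lists, went its own way. Its cDNA is described as a 3′ read, and its opening 30 bases hold the reverse complement (capitals) of the polyadenylation signal AATAAA, which is why they are shown.

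ALDOA A_70_P001706: aatagctgTTTATTggcagtaggctggaaa

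Searched as letters in this orientation, TTTATT is found in 3.70% of the 15008 probes and AATAAA in 5.63%, and no other member holds TTTATT. Whether A_70_P001706 reads aldolase message was not tested. Texel arrays read 6.40, 7.14, 6.09 (70 d), 6.20, 6.13, 6.48 (85 d), 7.92, 7.89, 8.03, 6.53 (100 d), 7.25, 5.92, 5.12 (120 d), 6.46, 6.75, 6.88 (135 d). Ujumqin fetal arrays read 7.59, 8.09, 7.50 (70 d), 7.89, 8.003, 8.37 (85 d), 7.97, 7.80, 8.10 (100 d), 7.80, 7.95, 7.51 (120 d), 7.54, 7.22, 7.08 (135 d). Lamb arrays read 6.71, 6.66, 7.67 (birth), 6.84, 7.31, 6.70 (1 month), 7.27, 7.25, 7.24 (2 months). At 70 and 85 d, the stages that chose this probe, Texel lay below Ujumqin without overlap, which is description only. Texel also lay below without overlap at 120 and 135 d. Of all tested probes with every array kept, 12.5% did so at 120 d and 6.1% at 135 d. At 100 d the breeds overlapped, and 3 of 4 Texel fetuses were at the Ujumqin level. In order of means every neighbouring pair overlapped, from Texel at 120 d (6.09 ± 1.08, SD), 85 d, 70 d and 135 d through the lambs, Ujumqin at 135 d and Texel at 100 d to Ujumqin at 70, 120, 100 and 85 d (8.09 ± 0.25). The change from 70 to 135 d was 0.16 ± 0.37 in Texel (adjusted p 0.767) and -0.45 ± 0.37 in Ujumqin (0.361). Both contrasts use the 70 d arrays, which helped to choose this probe, so they are no independent evidence.

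All 9 probes differed across the fetal stages of Texel in the F test of limma (adjusted p below 0.05), against 51.7% of all probes tested. Those of Ujumqin fetuses differed for 8 of 9, against 38.8%, the exception being A_70_P001706 (adjusted p 0.400). These F tests use arrays that chose the 3 selected probes: those of 70 and 85 d for A_70_P001706 (0.00405 in Texel), of 85 and 100 d for FBP2 and of 100 d for PDK4. Without the 3, the counts were 6 of 6 in Texel and 6 of 6 in Ujumqin, of which A_70_P041621 is also in the study's lists at 70 and 85 d. With slide as a term in the fit, the F-test counts over all 9 probes fell to 3 in Texel and 5 in Ujumqin. Calls over all probes fell from 7369 to 267 and from 5518 to 355. From 70 to 135 d in Texel 8 of 9 passed, against 42.8% of all probes, and all 8 were higher at 135 d, against 19.0% of all probes higher and 23.8% lower. In Ujumqin 8 of 9 passed, against 40.1%, again all higher, against 18.2% of all probes higher and 21.9% lower. The exception in both breeds, A_70_P001706, was chosen in part on the 70 d arrays used here. The 9 probes stand for fewer independent measurements, since 3 pairs each read 1 cDNA.

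With each array scaled by its 75th percentile, the median change of all probes was -0.20 from 70 to 135 d in Texel, -0.10 in Ujumqin, 0.21 from 135 d to birth and -0.11 from 1 to 2 months, beside -0.08, -0.06, 0.00 and 0.02 with quantile normalization. The 8 probes called from 70 to 135 d stayed called and higher in both breeds with this scaling. Of the calls of all probes, it moved the share that was higher from 50.4% to 64.5% between 135 d and birth, and from 41.0% to 19.5% between 1 and 2 months.

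Slides carried 8 arrays each in a layout that mixed few stages, so stage and slide are partly confounded. With slide as a term in the fit, FBP2 still rose from 70 to 135 d, by 8.82 in Texel (adjusted p 0.000164) and 9.72 in Ujumqin (6.68e-06). In Ujumqin the rises of A_70_P041621 (3.45, 0.00303), A_70_P041622 (3.36, 0.0109) and A_70_P016387 (2.76, 0.0158) also passed. The other calls were lost in that fit, with PDK4 at 2.43 in Texel (0.674) and 2.62 in Ujumqin (0.561) and the GAPDH probes at 2.13 to 2.52 (0.0796 to 0.150). The remaining Texel values with slide as a term were 2.11 for A_70_P041621 (0.118), 2.01 for A_70_P041622 (0.203), 2.58 for A_70_P016387 (0.0532) and 1.501 for A_70_P016386 (0.210), and A_70_P016386 was at 1.98 in Ujumqin (0.0622). A_70_P001706, called in neither fit, was at 0.92 in Texel (0.741) and 0.52 in Ujumqin (0.828). Its Ujumqin value without slide was -0.45, so the direction turned there.

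Within single slides the fetal stages could be compared in steps, not all of which went up. The arrays of 85 and 100 d chose FBP2, and those of 100 d chose PDK4. Differences of either probe below that use such arrays are description only and test nothing. FBP2 was higher by 4.26 in Texel at 85 d than at 70 d on one slide, by 2.46 in Ujumqin at 85 d than at 70 d on another, and by 1.55 in Ujumqin at 120 d than at 100 d on a further one, without overlap each time. For PDK4 the same 3 differences were 0.62, 0.16 and 2.14, of which the first 2 overlapped. A_70_P041621 differed by 0.62, 0.52 and 1.55, with overlap in the second, and A_70_P041486 by 0.03, 0.02 and 0.76, with overlap in the first 2. The other steps within a slide compare Texel stages by 1 to 3 arrays. From 85 to 100 d they gave 2.43 for FBP2, 1.54 for PDK4 and 0.84 for A_70_P041486, but -0.30 for A_70_P041621, -0.32 for A_70_P041622, and -0.20 and -0.40 for the LDHA probes, from 1 array against 1. From 100 to 120 d they gave 1.41, 0.11 and 1.098 for the first 3 and 1.09 for A_70_P041621, with overlap for PDK4. From 120 to 135 d they gave 0.96 for FBP2, -0.61 for PDK4, 0.36 for A_70_P041486 and 0.45 for A_70_P041621, with overlap for PDK4 and A_70_P041486. One slide held lambs of 1 month beside a Ujumqin fetus of 100 d, and the lambs exceeded it by 5.32 for FBP2, 7.70 for PDK4, 3.20 for A_70_P041621 and 2.76 for A_70_P041486.

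At birth, FBP2, PDK4 and ALDOA stood higher than at 135 d in Ujumqin, the breed with postnatal samples. PDK4 rose by 3.14 ± 1.03 (adjusted p 0.0171, 1 birth array kept), FBP2 by 2.19 ± 0.44 (0.000268, 2 birth arrays kept) and A_70_P041621 by 0.86 ± 0.24 (0.00522), each with all kept arrays at birth above all 3 at 135 d. The GAPDH-named probes went by -0.61 (0.0597) and -0.47 (0.207) and did not pass. That made 3 of 9 probes called, all higher, against 41.6% of all probes. At 0.79 (0.0758) and 0.29 (0.556), the LDHA probes did not pass, nor did A_70_P041622 at 0.42 (0.313) or A_70_P001706 at -0.26 (0.596). The birth arrays shared their slide with Texel fetuses of 70 and 85 d only. With slide as a term none of the 3 passed, at 5.16 for PDK4 (0.309), 1.83 for FBP2 (0.485) and 0.96 for A_70_P041621 (0.559), and A_70_P041486 was at 0.16 (0.946). Without Ujumqin replicate 3 of 135 d, the rise of PDK4 was 2.15 (0.0769).

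Between birth and 1 month the GAPDH-named probes rose, by 1.23 ± 0.26 (adjusted p 0.00148) and 1.21 ± 0.30 (0.00499), and by A_70_P041486 all 3 lambs of 1 month lay above all 3 newborns. These were 2 of 9 probes called, against 19.9% of all probes. The other 7 moved by -0.50 to 0.45 and did not pass. With slide as a term the GAPDH values were 0.95 (0.847) and 1.00 (0.885). From 1 to 2 months limma called 0 of 9 probes, against 7.63% of all probes, and 0 of 9 had an unadjusted p under 0.05. Over the 4 groups from 135 d to 2 months, 6 of 9 probes differed by the F test, against 59.4% of all probes. The exceptions were A_70_P001706 (0.787), A_70_P016386 (0.875) and A_70_P041622 (0.120). With slide as a term in the fit, 3 of 9 differed, and calls over all probes fell from 8490 to 3701. On the slide that held 135 d and 2 months, the older lambs exceeded the Ujumqin fetuses by 3.47 for PDK4, 1.58 for FBP2, 0.88 for A_70_P041621 and 0.42 for A_70_P041486, without overlap. The other GAPDH-named probe, A_70_P041487, differed by 0.46, with overlap.

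The study compared the breeds at each fetal stage to find genes that differ with muscling. At stages that did not choose them, FBP2 was higher in Texel at 70 and 120 d without overlap and level with Ujumqin at 135 d, PDK4 was lower at 70 d without overlap and overlapped at 85, 120 and 135 d, and A_70_P001706 overlapped at 100 d and was lower at 120 and 135 d. Over all tested probes with every array of the stage kept, Texel lay wholly above Ujumqin for 13.2% and wholly below for 11.6% at 70 d, for 5.82% and 12.5% at 120 d, and for 6.14% and 6.10% at 135 d. Aldolase by its named probes was higher in Texel at 70 and 85 d, by about 1. The GAPDH-named probes hardly differed at 70 and 85 d. None of the differences that could be tested passed at an adjusted p under 0.05 on the arrays of the stage alone, where 3 arrays against 3 allow no two-sided exact permutation p under 0.1.

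The differences that chose the 3 probes are given without a test. They were -1.18 at 70 d and -1.81 at 85 d for A_70_P001706, 3.40 at 85 d and 1.14 at 100 d for FBP2, and 2.52 at 100 d for PDK4, all as Texel minus Ujumqin. Sizes depend on the treatment of dim spots: with normexp background correction A_70_P001706 was at -0.51 at 70 d, -0.87 at 85 d and -0.74 at 120 d, and FBP2 at 2.07 at 85 d. A_70_P041621 also stands in the study's lists at 70 and 85 d, so its differences there, though tested below, are no independent evidence.

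At 70 d FBP2 was higher in Texel, with 3 of 3 arrays above all Ujumqin arrays, by 1.89 ± 0.40 (adjusted p 0.1003). As 1 of the 3 Ujumqin arrays was well above background, that size is uncertain and ranged from 0.32 to 2.12 over the settings without slide as a fixed term. A_70_P041621 was higher by 1.01 ± 0.23 (0.113, 3 of 3) and A_70_P041622 by 1.03 ± 0.38 (0.277, 1 Texel array kept). PDK4 was at -0.77 ± 0.30 (0.261, 3 of 3 Texel arrays lower), LDHA at 0.65 (0.251) and 0.46 (0.373), and the GAPDH-named probes at 0.03 (0.955) and 0.10 (0.874). Limma called 0 of 8 tested members, against 0.154% of all probes, and 5 of 8 had an unadjusted p under 0.05, as had 2427 of 14257 probes. Those 5 include the listed A_70_P041621 and A_70_P041622 of the same cDNA. No slide held both breeds at 70 d, where the breed difference is therefore also one between slides, and a fit with slide as a term gave 1.01 for FBP2 and 1.06 for A_70_P041621.

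At 85 d A_70_P041621 was 1.13 ± 0.15 higher in Texel (adjusted p 0.0889, 3 of 3 arrays), A_70_P041622 1.17 ± 0.18 (0.162), A_70_P016387 0.81 ± 0.13 (0.124) and A_70_P016386 0.73 ± 0.15 (0.204). PDK4 was at -0.14 ± 0.85 (0.953), and the GAPDH probes at 0.02 (0.967) and 0.04 (0.961). Limma called 0 of 7 tested members, against 0.0562% of all probes, with 4 of 7 at an unadjusted p under 0.05, as were 1879 of 14246 probes. Those 4 are the ALDOA and LDHA pairs, which each read 1 cDNA, and the former holds the listed A_70_P041621. On the 1 slide with both breeds, the single Texel fetus of 85 d differed from the 3 Ujumqin fetuses by 2.81 for FBP2, 1.17 for A_70_P041621 and -1.60 for A_70_P001706, which describes arrays that chose or listed these probes and tests nothing.

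At 100 d the tested differences included 0.24 ± 0.10 for A_70_P016386 (adjusted p 0.367), 0.32 ± 0.19 for A_70_P041621 (0.499) and -0.36 ± 0.36 for A_70_P001706 (0.688), the last at -1.06 with slide as a term and as near 0 as -0.01 with 1 array left out. Limma called 0 of 7, against 0.0139% of all probes, and 1 of 7 had an unadjusted p under 0.05, as had 1868 of 14338 probes. The slide with 3 Texel fetuses and 1 Ujumqin fetus of 100 d gave 1.41 for FBP2 and 2.68 for PDK4, both chosen on this stage, and -0.49 for A_70_P001706, with overlap.

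At 120 d A_70_P001706 was at -1.66 ± 0.52 (adjusted p 0.422, 3 of 3 Texel arrays lower), PDK4 at 1.70 ± 0.65 (0.465, ranges overlapping) and FBP2 at 0.86 ± 0.32 (0.450, 3 of 3 higher). The GAPDH-named probes were at 0.58 (0.640) and 0.59 (0.645). With 1 array left out, PDK4 ranged from 1.07 to 2.20 and the GAPDH-named probes from 0.17 to 0.93 and from 0.16 to 0.95. Limma called 0 of 9, against 0.0420% of all probes, with 3 of 9 at an unadjusted p under 0.05, as were 1475 of 14292 probes. On the slide with 2 Texel and 3 Ujumqin fetuses the values were -2.24 for A_70_P001706, 2.20 for PDK4 and 0.80 for FBP2, without overlap. With slide as a term in the fit over all arrays, A_70_P001706 was called at -1.96 (0.00380), but the fit over all arrays without slide called it too (-1.66, 0.0143). Calls over all probes were 6 on the arrays of 120 d alone, 468 in the fit over all arrays and 873 with slide in it.

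At 135 d A_70_P001706 was at -0.58 ± 0.20 (adjusted p 0.791, 3 of 3 Texel arrays lower), FBP2 at 0.06 ± 0.40 (0.987) and PDK4 at -0.44 ± 0.96 (0.962, 2 Texel arrays kept). The value of A_70_P001706 ranged from -0.75 to -0.26 over the settings without slide as a fixed term. Limma called 0 of 9, against 0.0210% of all probes, and 1 of 9 had an unadjusted p under 0.05, as had 861 of 14313 probes. The slide shared by both breeds gave -0.46 for A_70_P001706, without overlap, and 0.11 for FBP2, with overlap.

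Whether the breed difference changed with stage was tested for the 6 probes named in the files. Limma's F test of the 4 interaction terms called 0 of 6, against 0.282% of all probes, and 2 of 6 had an unadjusted p under 0.05, as had 1910 of 14184 probes: A_70_P041621 (adjusted p 0.154) and A_70_P041622 (0.192). The larger rise of the ALDOA probes in Ujumqin than in Texel is therefore not shown to differ between the breeds. For the 3 selected probes the change of the breed difference with stage was not tested.

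Lists of metabolic genes put the members among their pathways, with 1 probe per gene named on the array. Stage calls of list and marker genes come from the fit without slide and were not followed gene by gene with slide as a term. With that term, calls over all probes from 70 to 135 d fell from 6126 to 195 in Texel. In Ujumqin they fell from 5734 to 473, and from 5947 to 156 between 135 d and birth. Of 21 glycolysis genes 8 were measured, ALDOA, GAPDH and LDHA among them, and from 70 to 135 d 6 rose and 1 fell in Texel (median 1.80), while 6 rose and 0 fell in Ujumqin (median 2.41). Over all probes tested 2719 rose and 3407 fell in Texel (median -0.08), and 2596 rose and 3138 fell in Ujumqin (median -0.06). ENO3, the muscle enolase, rose by 2.91 ± 0.25 in Texel and 4.02 ± 0.25 in Ujumqin (adjusted p 1.88e-13). It and ALDOA had the largest called changes of that list in Ujumqin. PFKL, the liver phosphofructokinase, fell in Texel (-0.93, 0.00117) and was at 0.09 in Ujumqin (0.779).

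The study's lists also name TPI1, ALDOC and further ENO3 probes, which were chosen there on breed differences in these fetuses. TPI1 probe A_70_P017956, for triosephosphate isomerase, rose by 1.09 ± 0.30 in Texel (0.00545) and 2.37 ± 0.27 in Ujumqin (2.32e-07), with 8 of 40 arrays left out. ALDOC probe A_70_P033971, for another aldolase, rose by 2.47 ± 0.23 (1.20e-09) and 3.02 ± 0.23 (2.96e-11), and by 1.89 ± 0.26 at birth (2.01e-06). ENO3 probes A_70_P022246 and A_70_P041626 rose by 3.47 ± 0.30 and 4.04 ± 0.25 in Ujumqin.

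Of 13 glycogen genes 3 were measured. PYGM, the muscle glycogen phosphorylase, rose by 2.41 ± 0.24 in Texel and 3.50 ± 0.24 in Ujumqin (2.73e-12), and by a further 1.64 ± 0.24 at birth (5.75e-06). PYGL, the liver form, rose by 0.84 (0.0421) and 0.95 (0.0228), while PYGB, the brain form, fell in Texel (-0.77, 0.00755) and did not pass in Ujumqin (-0.45, 0.122). The list's median was 0.84 in Texel, with 2 higher and 1 lower, and 0.95 in Ujumqin, with 2 higher and 0 lower. Of 6 gluconeogenesis genes 2 were measured by name, and limma called 0 in either breed, with 0 at an unadjusted p under 0.05 and medians of -0.40 and -0.22. FBP2 itself belongs to that list but was not counted in it, having no name in the files.

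Sugar and lactate carriers, 6 of 7 measured, went up in part, with 5 higher and 1 lower in Texel (median 1.00) and 4 higher and 1 lower in Ujumqin (median 0.87). SLC2A4, the insulin-regulated glucose carrier of muscle, rose by 3.71 ± 0.34 in Texel and 3.84 ± 0.34 in Ujumqin (3.39e-10), and SLC2A5, a fructose carrier, by 1.34 (0.00304) and 1.32 (0.00375). SLC2A1, the carrier of basal glucose uptake, fell by 1.27 in Texel (0.00129) and by 1.30 in Ujumqin (0.00111), and dropped by 1.95 at birth (1.42e-05). Fatty acid uptake and oxidation genes, 6 of 20 measured, numbered 4 higher and 0 lower in Texel (median 1.49) and 5 higher and 0 lower in Ujumqin (median 1.83). UCP3, a mitochondrial carrier protein of muscle, rose by 5.01 ± 0.63 and 6.30 ± 0.63 (7.74e-09), with a further 4.10 ± 0.63 at birth (1.22e-05). At 70 d UCP3 was dim, at 4.76 in Texel and 3.59 in Ujumqin, so the sizes of its fetal rise are uncertain. It was well above background on 34 arrays. LPL, the lipase that frees fatty acids from blood lipoproteins, rose by 2.48 ± 0.35 and 2.72 ± 0.35 (3.49e-07).

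Citrate cycle and respiration genes, 2 of 27 measured, gave 0 calls by limma in either breed, with 1 at an unadjusted p under 0.05 in each and medians of 0.62 and 0.57. None of the 11 genes of pyruvate dehydrogenase and its kinases and none of the 5 creatine and adenylate kinases was measured by name. At birth the medians were 0.13 for glycolysis (2 higher, 0 lower), -0.09 for glycogen (1 higher, 0 lower), -0.54 for sugar and lactate carriers (0 higher, 2 lower) and 0.51 for fatty acid genes (2 higher, 0 lower), beside 0.00 over all probes (2998 higher, 2949 lower). Between the breeds limma called 0 of the 27 measured list genes at each of the 5 stages, with 10, 5, 4, 2 and 1 of them at an unadjusted p under 0.05 from 70 to 135 d. Over all probes that held for 2427 of 14257, 1879 of 14246, 1868 of 14338, 1475 of 14292 and 861 of 14313.

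Sums of cell markers keep outlier spots, so that every array sums the same probes. Of 21 skeletal muscle markers 9 were measured, and their summed level was 19.79 to 19.99 in the fetal groups and 20.21 to 20.30 in the lambs. Which gene of a list is the most abundant cannot be read from probes that differ in brightness. The sum adds signals before the logarithm, so the brightest probes weigh most. TNNC2, a fast troponin, was kept on 7 arrays and MYLPF on 15. In Texel at 100 d both read 18.78, beside 7.87 to 14.94 for the other markers. The summed level there thus mostly follows TNNC2 and MYLPF and says little about the others. From 70 to 135 d MYF5 fell, at -2.12 in Texel (2.45e-06) and -2.35 in Ujumqin (5.18e-07), while MB rose by 1.25 (0.000368) and 2.59 (7.74e-09).

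Fast and slow fibre markers were summed in the same way. Their probes carry the older names OMYHC2X, OMYHC2A and OMYHCS. A hand-made list reads these as MYH1, MYH2 and MYH7, which is not certain. The fast list had 2 of 8 genes measured, MYH1 and MYH2, and its sum was 13.87, 14.32, 15.23, 15.16 and 15.12 in Texel from 70 to 135 d. In Ujumqin it was 12.93, 14.46, 14.50, 14.72 and 15.01 before birth and 16.05, 15.75 and 15.30 after. The slow list had 1 of 5, MYH7, at 7.62, 7.55, 7.89, 9.57 and 9.87 in Texel, and at 8.60, 8.03, 8.19, 8.83, 9.84, 10.42, 11.14 and 11.59 in Ujumqin. Their part in the rise of the glycolytic probes was not tested.

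Other cell types were read by small lists. Adipocyte markers, 5 of 8 measured, summed to 9.97, 9.49, 10.25, 11.25 and 11.74 in Texel and to 10.06, 9.80, 10.19, 10.81, 11.67, 11.97, 12.67 and 12.70 in Ujumqin, and UCP1 was well above background on 3 arrays. These sums hide opposite courses from 70 to 135 d, as LPL and FABP4 (2.67, 0.0491, and 4.26, 0.00247) rose while LEP fell, at -1.14 in Texel (0.00325) and -1.104 in Ujumqin (0.00443), and PLIN1 did not pass (0.63, 0.0868, and -0.41, 0.291). Fibroblast markers, 4 of 5 measured, summed to 17.72, 17.66, 17.59, 17.39 and 16.99 in Texel and to 17.67, 17.49, 17.72, 17.31, 16.79, 16.003, 16.32 and 16.29 in Ujumqin. The erythroid list had 1 of 8, HBB, at 16.50, 15.77, 16.44, 16.63 and 16.72 in Texel, and at 16.64, 16.56, 16.23, 16.86, 16.73, 15.29, 13.10 and 10.46 in Ujumqin. The newborns varied, at 13.16, 16.47 and 16.26, and the change at birth did not pass (adjusted p 0.143).

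Leukocyte markers, 3 of 8 measured, summed to 9.35, 8.87, 9.40, 10.12 and 10.05 in Texel and to 9.40, 9.26, 9.04, 9.12, 9.03, 8.98, 10.08 and 10.69 in Ujumqin, and CD4 was well above background on 5 arrays. Single animals carried the late Texel means, with 12.01 beside 8.58 and 9.78 at 120 d and 11.45 beside 9.04 and 9.66 at 135 d. The endothelial list had 1 of 4, KDR, at 8.28, 8.73, 8.82, 8.73 and 8.82 in Texel and at 8.36, 8.65, 8.93, 9.02, 9.15, 8.18, 8.05 and 7.20 in Ujumqin. Liver markers, 3 of 4 measured, summed to 11.37, 11.25, 11.09, 12.18 and 11.62 in Texel and to 11.99, 11.57, 10.89, 11.53, 11.98, 10.39, 10.82 and 10.58 in Ujumqin. Within that sum ALB fell, at -1.68 in Texel (0.0410) and -1.77 in Ujumqin (0.0331), SERPINA1 fell, at -2.43 (0.00355) and -3.25 (0.000209), and TF did not pass, at 1.07 (0.101) and 1.09 (0.0998). None of the 5 neural markers was measured. What part these cell types have in the members' changes was not tested.

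Likeness of pattern was measured as Pearson's r between the 13 group means of a member and of 1466 named probes, which share the same 40 arrays and their stages. FBP2 was most like ENO3 A_70_P041626 (0.982), SLC2A4 A_70_P041221 (0.979) and ENO3 A_70_P041627 (0.975). PDK4 was most like A_70_P041647 (0.981) for PFKM, the muscle phosphofructokinase, PFKM A_70_P041646 (0.975) and NAMPT (0.970), an enzyme of NAD synthesis. A_70_P001706 was most like SPA17 (0.838), a sperm surface protein, ABCB1 (0.792), a drug efflux pump, and LOC780449 (0.708). With the other ALDOA probes A_70_P001706 had an r of -0.350 and -0.396. The other 8 members had an r of 0.879 to 0.999 with each other, highest between the GAPDH-named probes, which share most of their bases. The 13 means include the groups whose breed differences chose the selected probes, so these r values are description only.

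Base composition was 55.0% G and C in both named ALDOA probes, 36.7% in PDK4, 43.3% in LDHA A_70_P016387 and 45.0% in the other 5 members, beside a median of 43.3% over all probes.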

How the data were processed

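Each scanner file gives the intensity of its spots, from which the authors subtracted the background in Feature Extraction 10.5 without scaling arrays to each other, per the file headers. The deposited table is in log2, quantile normalized by the authors, and served as an alternative. From 15208 spots, outlier spots were left out, spots of a probe averaged, arrays normalized together by quantiles, and values floored at 1 and taken to log2. Probes well above background on 1 array or more were tested (617 were not). Stage contrasts come from 1 limma 3.58.1 fit (R 4.3.3) over 13 groups, breed contrasts from the arrays of that stage, adjusted by Benjamini-Hochberg over all probes tested. Tables used Python 3.11.15, numpy 2.4.6 and pandas 2.3.3. Alternatives tried varied normalization, background, filter, floor, outlier spots, fit, test, threshold, slide, sex and replicate number.

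Named genes are the members, from each of 8 gene lists up to 2 genes per direction with the largest called Ujumqin change from 70 to 135 d, the glycolytic probes in the study's lists, and the 3 named probes most like each selected probe. List genes that moved against their list were named after seeing values. Gene names were available for 1605 probes. Another 10 lists hold markers of cells. Members and lists were chosen with earlier results of these data known.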

Additional observations from a re-analysis of the deposited data

Results flagged for a closer look

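One group of 4 had an animal apart from the others. In Texel at 100 d, ALDOA probe A_70_P001706 read 6.53 in replicate 4 and 7.89 to 8.03 in the other 3, so that the gap to the nearest animal was 0.909 of the whole range (Dixon's ratio, past its critical value for 4 samples). Chance alone flags about 1 in 20 groups, and groups of 3 were not looked at in this way. The summed leukocyte markers of that animal were 10.51, beside 8.91 to 9.28 in the other 3. The cause was not tested.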

How the results depend on the processing

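The 10 comparisons with a value per member were repeated under those of 20 other settings that applied. Arrays were left out singly, up to 40 for stage comparisons and only those of the stage for breed comparisons. Of 3559 values of single members, 3511 kept their side of the threshold. The 3511 include breed differences given without a test, which have no side to change. The other 4 comparisons, 3 F tests over stages and breed by stage, were followed by counts alone. Of the 3511 values that kept their side, 73 changed sign, none of them called before or after. Of the other values of single members, 18 were no longer called (16 of them with slide as a fixed term), 30 became called, and 0 were called in the opposite direction. The cause was not tested.

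Slide as a fixed term lowered the number of members called to 3 across Texel stages, 5 across Ujumqin stages, 3 from 135 d to 2 months, 1 from 70 to 135 d in Texel, 4 in Ujumqin, 0 from 135 d to birth and 0 from birth to 1 month, and gave 1 between breeds at 120 d. Calls over all probes fell with it too, from 7369 to 267 across Texel stages, 5518 to 355 across Ujumqin stages, 6126 to 195 and 5734 to 473 from 70 to 135 d. Between breeds at 120 d they were 6 on the arrays of that stage, 468 in the fit over 13 groups and 873 with slide added to it. Slides hold few shared groups, so this fit has little to compare. Slide as a random block had a correlation of 0.0599.

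From 135 d to birth, 3 members called became 6 with 75th percentile scaling, and 5 with the deposited table, with outlier spots kept, with a fit within 1 breed, and with outlier flags of the brightest 1% of spots ignored, an alternative chosen after seeing the data. The added calls of LDHA and A_70_P041622 were higher at birth, and those of A_70_P041486 lower, at -0.64 with the deposited table, -0.64 with outlier spots kept, -0.61 within 1 breed and -0.61 with normexp (adjusted p 0.0320), which gave 4. With the 2-fold threshold A_70_P041621 was lost, leaving 2.

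Between breeds the count of 0 became, in the fit over 13 groups, 2 at 70 d (FBP2, adjusted p 0.0165, and A_70_P041621, 0.0386), 1 at 85 d (A_70_P041621, 0.0266) and 1 at 120 d (A_70_P001706, 0.0143). With sex as a covariate it was 1 at each of these stages. The study's t-test at an unadjusted p under 0.05 with 2-fold, without its further condition on the FDR, gave 1 at 70 d and 2 at 85 d. An intensity trend gave 1 at 85 d, and slide as a random block 1 at 85 d and 1 at 120 d.

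Leaving out 1 array gave 8 to 9 members called across Texel stages, 7 to 8 across Ujumqin stages, 4 to 6 from 135 d to 2 months, 7 to 8 from 70 to 135 d in each breed, 2 to 5 from 135 d to birth (5 without Texel replicate 3 of 120 d), 2 from birth to 1 month, 0 from 1 to 2 months, 0 between breeds at each stage, and 0 to 1 for breed by stage (1 without Texel replicate 2 of 120 d). A group left with 1 array is assumed to vary like the others.

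The replicate number as a block left the counts at 9, 8, 6, 8, 8, 3, 2 and 0 for the stages and 0 between breeds. Over 234 pairs of arrays that share only a number, the median correlation of residuals was -0.0133 and 18 exceeded 0.1, so animals were not treated as paired.

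Calls over all probes differed by more than 1.5 times for these comparisons over the settings without slide as a fixed term: 6126 became 3234 at the lowest in Texel from 70 to 135 d, 5734 became 3099 in Ujumqin, 5947 became 2825 at birth, 2842 became 1132 from birth to 1 month, and 1094 ranged from 426 to 1665 from 1 to 2 months. Between breeds they ranged over 0 to 252, 0 to 143, 0 to 109 and 0 to 534 from 70 to 120 d, and from 0 to over 100 at 135 d, and the 40 for breed by stage from 18 to 62. Leaving out 1 array gave 1727 to 3306 from birth to 1 month, 398 to 1619 from 1 to 2 months, 2 to 7, 2 to 5, 0 to 255, 3 to 143 and 0 to 10 between breeds from 70 to 135 d, and 17 to 316 for breed by stage. With 3 arrays a group and FBP2 dim at 70 d, near background in Ujumqin, the number of arrays and the signal over background limit these values.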
